A study of Rattus norvegicus with 16 samples.

Results

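The peaks described here were ac4C peaks of cultured rat aortic smooth muscle cells that were listed in a control library and listed again in every Nat10 knockdown library. The members were chosen by overlap of the peak lists themselves: a row of control list 3 (Adcon-3) was a member when at least 1 of its exonic bases, on the same chromosome and strand, lay inside an exonic block of a row in each of the lists Adsh-1, Adsh-2 and Adsh-3. This held for 460 of the 3479 peaks of that control list (13.2%), in 422 of its 2848 genes (14.8%). The 6 ac4C lists held 71431 rows in all. The remaining 3019 peaks of the same control list are called the other control peaks below.

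The cells were primary rat aortic vascular smooth muscle cells grown in DMEM/F12 with 20% fetal bovine serum. Adsh cells (labelled NAT10 knockdown) received an adenovirus carrying a short hairpin RNA against NAT10 for 48 h, and Adcon cells (labelled wild type) a control adenovirus for the same time, so both groups carried a virus. Each group had 3 input RNA libraries and 3 libraries of RNA fragments of 100 to 200 nt immunoprecipitated with an antibody against ac4C, given by the authors as 1 peak list per library. A separate assay pulled down NAT10 protein with its RNA from wild type cells without virus (NAT10 RIP, 3 libraries with 1 peak list each). The knockdown left Nat10 RNA in the cells. The labels do not say whether the biological repeats came from separate animals. Every p-value of a comparison between Adsh and Adcon libraries therefore measures the spread between these samples only. The p-values of the peak lists are the authors' scores for single rows of a list and measure no such spread.

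N4-acetylcytidine (ac4C) is a cytidine that carries an acetyl group on its base. NAT10 is the acetyltransferase that places it in 18S ribosomal RNA and, with the adaptor THUMPD1, in certain transfer RNAs, and it has been described on messenger RNA as well. In an immunoprecipitation of RNA fragments, a peak marks a stretch of transcript that gave more fragments with the antibody than its surroundings or the input would give, and its width follows the fragment length rather than a single base.

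The targeted gene itself, Nat10 (ENSRNOG00000008663), had 4.38, 3.68 and 4.58 FPKM in the Adsh input libraries, against 7.69, 9.22 and 9.95 FPKM in the Adcon input libraries. FPKM is the number of fragments per kilobase of transcript after scaling for library size. The groups did not overlap, and the log2 change was -0.93 (SE 0.19, limma adjusted p = 0.227 over 13450 genes, unadjusted p of 0.00159). Of 10 smooth muscle markers, 9 had a mean of at least 1 FPKM. Their summed level was 1702, 928 and 3732 FPKM in Adsh libraries and 7118, 5041 and 5264 FPKM in Adcon libraries. The 4 endothelial markers summed to under 1 FPKM in every library, and 3 of the 4 leukocyte markers averaged under 1 FPKM. The 4 fibroblast markers summed to 183 to 248 FPKM in Adsh libraries and 269 to 298 FPKM in Adcon libraries. None of the endothelial, leukocyte or fibroblast markers had a peak in control list 3, and of the smooth muscle markers Lmod1 alone had a persisting one. In bulk RNA, fewer cells of a type and less RNA per cell cannot be told apart. The input libraries held 6417941 to 7468528 recovered fragments in the Adsh group and 8171176 to 12065991 in the Adcon group, while peak lists hold no read totals, so the depth behind the ac4C and RIP peaks is unknown.

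Each knockdown list by itself overlapped 23.8% to 31.6% of control list 3, and the 3 lists together left 460 peaks. Adsh-1 overlapped 1099 of the 3479 control peaks (31.6%), Adsh-2 overlapped 827 (23.8%) and Adsh-3 overlapped 1065 (30.6%). As shares of the knockdown lists, these overlaps took in 35.0% of the rows of Adsh-1, 31.2% of Adsh-2 and 40.4% of Adsh-3. For control lists 1 and 2, the rows at the single p-value that most of their rows share were left out. Adcon-1, with 3117 rows, then overlapped 1042 peaks (29.95%), within the range of the knockdown lists. Adcon-2, with 1920 rows, overlapped 659 (18.9%), below each knockdown list. As shares of their own rows, these overlaps took in 33.4% of Adcon-1 and 34.7% of Adcon-2. A further 454 control peaks were met by 2 knockdown lists, 703 by 1 list and 1862 (53.5%) by none. The list of Adsh-2 was the narrowest gate: without it the count of persisting peaks was 722, against 554 without Adsh-1 and 558 without Adsh-3.

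The persisting peaks had smaller p-values than the rest of their list, a description only, since the selection used these lists. Their median p in control list 3 was 2.45e-08, and the medians for peaks met by 2, 1 and 0 knockdown lists were 4e-05, 0.00028 and 0.00145. The p-values are scores set by the authors, and the sources used here do not say whether they were adjusted. A p listed as 0 was held by 23 of the 460 persisting peaks, and 8 of these 23 were at 0 in all 3 knockdown lists as well. These 8 peaks lay in Col1a1, Rpl35, Mt-co1, both mitochondrial rRNA genes, AABR07015078.1, AABR07015078.2 and AC134224.3.

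Overlap was rarely a matter of a few bases. The median share of a persisting peak's exonic bases covered by knockdown rows was 86.3% in Adsh-1, 80.4% in Adsh-2 and 100% in Adsh-3. At least 50% of the peak was covered for 427 peaks in Adsh-1, 416 in Adsh-2 and 440 in Adsh-3, and requiring that in all 3 lists left 383 of the 460. The peak was covered whole in 167, 145 and 279 cases in Adsh-1, Adsh-2 and Adsh-3, and in all 3 lists together in 82 cases, 16 of them in genes that do not code protein. Where a peak and its knockdown row were each a single block, their midpoints lay a median of 29.5 nt apart in every knockdown list. Rows with exactly the same blocks as the control peak numbered 55 in Adsh-1, 47 in Adsh-2 and 35 in Adsh-3. The knockdown rows on these peaks had a median exonic length of 239 nt in Adsh-1, 211 nt in Adsh-2 and 300 nt in Adsh-3, against 240 nt for the control peaks themselves. Adsh-3 listed a smaller p than control list 3 at 374 of the 460 peaks, whereas Adsh-1 did so at 203 and Adsh-2 at 157. That list had smaller p-values throughout, with a median of 1.1e-06 over its 2592 rows, against 0.001 in Adsh-1 and 0.0011 in Adsh-2, so these counts are given with no test.

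At the edge of the selection, 6 members shared a single base with a knockdown list. Among them, Pfn1, which codes the actin-monomer binder profilin, had a 234 nt peak of which Adsh-1 and Adsh-2 covered 205 bases each and Adsh-3 covered 1. Dnajc2, a ribosome-associated chaperone, shared 90, 1 and 120 bases of 150 with Adsh-1, Adsh-2 and Adsh-3. AABR07035074.1 shared 178, 119 and 1 bases of 208. Just outside stood Srsf2, a splicing factor, whose 565 nt peak shared 149, 0 and 357 bases, AC134224.1, a long noncoding RNA whose 1012 nt peak shared 329, 0 and 1012 bases, and Ncam1, a cell adhesion molecule whose 359 nt peak shared 0, 210 and 330 bases. These near misses had strong peaks in the control list, at a p of 0 for Srsf2 and AC134224.1 and a p of 1e-270 for Ncam1. They are not typical of the 454 peaks met by 2 knockdown lists, whose median p was 4e-05.

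Persisting peaks were longer than the other control peaks and more often spliced across several exons. Their exonic length had a median of 240 nt (quartiles 181 and 330 nt, lowest 116 and highest 1571 nt), against 151 nt for the other control peaks (quartiles 148 and 181 nt, lowest 102 and highest 1012 nt). Of the persisting peaks, 206 (44.8%, exact binomial 95% interval 40.2% to 49.5%) ran over more than 1 exonic block, against 883 (29.2%, 27.6% to 30.9%) of the other control peaks. More than 2 blocks were seen in 123 persisting peaks (26.7%) and in 313 others (10.4%). These intervals, like the others on peaks, cover counting error only. A long peak has more bases that can be met, so length enters the selection and is given as a description.

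**Figure D1:**
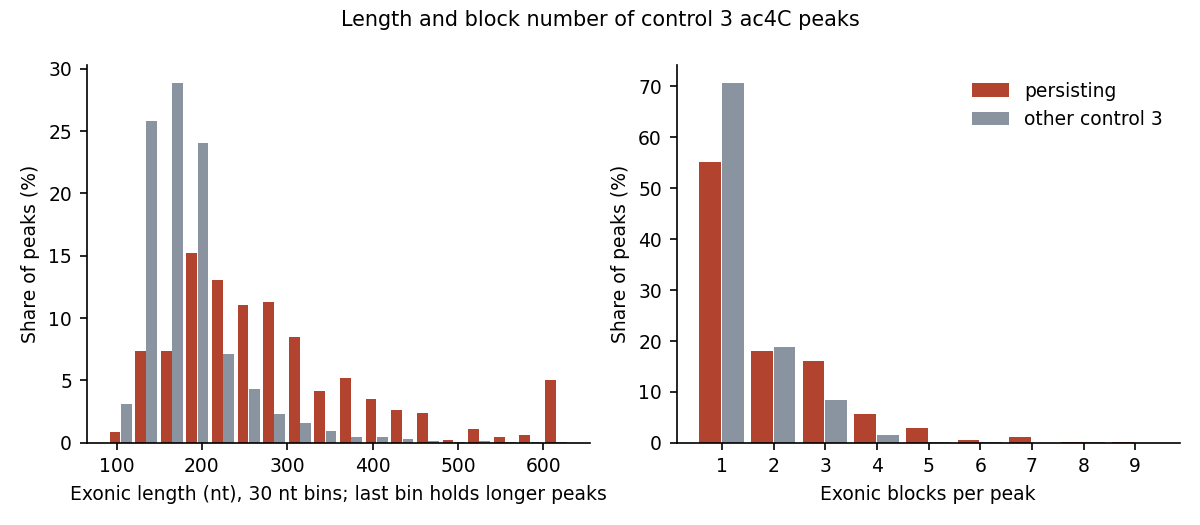
Share of persisting (red) and other (grey) peaks of control list 3, in percent of each set, by exonic length in 30 nt bins (left) and by number of exonic blocks (right). The other control peaks crowd between 120 and 210 nt and 29.2% of them have more than 1 block, while the persisting peaks spread to beyond 600 nt and 44.8% have more than 1 block.

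The peaks with the most blocks followed spliced messages over long stretches of gene. Top1, DNA topoisomerase I, had 9 blocks and 629 exonic bases at chr3:156662223-156695388, all of them covered in Adsh-1 and Adsh-3 and 420 in Adsh-2. Eif3a, the largest scaffold subunit of translation initiation factor 3, had 8 blocks and 1020 bases at chr1:282146202-282152844, with 662, 542 and 990 bases covered in Adsh-1, Adsh-2 and Adsh-3. Hnrnpa2b1, an RNA-binding protein of the spliceosome and of RNA transport, had 7 blocks and 592 bases at chr4:81237496-81240393, which made up 55.6% of the exonic length of the gene. Metap2, a methionine aminopeptidase, also had 7 blocks. Coordinates are those of the deposited lists, counted from 1; their contig names are those of the rat assembly Rnor_6.0 (rn6). No genome of that assembly was used here, so no peak sequence is printed.

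Relative to the transcript, a persisting peak took up more of its gene. Among genes with at least 100 recovered fragments, it covered a median of 8.92% of the gene's exonic length (442 peaks, quartiles 5.41% and 18.1%), against 5.18% for the other control peaks (2901 peaks, quartiles 3.28% and 8.40%). The genes themselves were of similar exonic length, with medians of 2890 nt for persisting peaks and 3164 nt for the others. At the high end the peak filled the gene, with 100% of the length in both mitochondrial rRNA genes, in Mt-nd6 and in AC134224.3 among others, and 73.3% in Rpl35, a protein of the large ribosomal subunit.

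Position along the gene could be judged for 80 persisting and 436 other control peaks, those in genes whose span in the lists was within 0.9 to 1.1 times the gene length in RefSeq assembly GRCr8. The span is that of the gene's rows in the lists, is genomic and includes introns. A peak at the edge of the listed rows is therefore placed near 0% or 100% by definition. The crowding at the ends of the span was thus not tested. In both sets more peaks lay towards the 3′ end than towards the 5′ end. The stretch from 80% to 100% of the gene span held 38 of the 80 persisting peaks (47.5%, interval 36.2% to 59.0%) and 256 of the 436 others (58.7%, 53.9% to 63.4%). The stretch from 0% to 20% held 17.5% of the persisting peaks and 21.1% of the others. Between them, the stretches that begin at 20%, 40% and 60% held 11.25%, 11.25% and 12.5% of the persisting peaks, against 5.28%, 6.65% and 8.26% of the others. The median position was 79.5% of the span for persisting peaks, with an interval of 55% to 90.9%, and 91.6% for the others, with an interval of 87.3% to 94.9%. Fn1, at 99.7% of its span, and Anp32b, at 90.9%, were examples of the 3′ kind. Metap2 at 16.0% and Eif2s2 at 35.2% lay towards the 5′ end, and Hsp90b1 carried one peak at 54.9% and another at 94.8%.

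Mitochondrially encoded RNA was dense in persisting peaks. Of the 17 peaks that control list 3 placed on the mitochondrial chromosome, 12 persisted and 5 did not, which made up 2.61% of the persisting peaks and 0.166% of the others. Of these 12, 10 lay in messages for respiratory chain subunits and 2 in the rRNA genes AY172581.9 (chrMT:68-1025) and AY172581.24 (chrMT:1094-2664). Both rRNA peaks spanned the whole gene, were covered whole in all 3 knockdown lists and stood at a p of 0 in the 3 knockdown lists and the 3 control lists. Mt-co1, the core subunit of cytochrome oxidase and the highest-level gene with a persisting peak, had 298 bases at chrMT:6570-6867, of which 239, 239 and 298 were covered. Adsh-3 covered all 12 peaks whole, Adsh-1 covered 5 and Adsh-2 covered 4. In Mt-nd5 and several other of these messages, the Adsh-3 rows were as long as the gene (1830 nt for Mt-nd5). Any control peak in such a gene would be covered whole. All 12 were found again in control list 1 and 11 of 12 in control list 2. Mt-nd4 was the weakest of them, with a p of 0.0083 in Adsh-1, 9.5e-06 in Adsh-2 and 2.5e-51 in Adsh-3, against 0.00023 in control list 3, and its gene averaged 11.4 FPKM. The peaks of Mt-nd5 and Mt-nd6 overlap by 23 bases on opposite strands, and the sources used here do not say whether reads were assigned by strand, so reads in that stretch cannot be told apart.

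Genes that do not code protein held 34 persisting peaks (7.39%, interval 5.17% to 10.2%), against 112 of the other control peaks (3.71%, 3.06% to 4.45%). By the biotype in the deposited table these were 9 misc_RNA, 5 pseudogene, 5 snRNA, 5 processed_pseudogene, 4 rRNA, 3 lincRNA, 2 mitochondrial rRNA and 1 antisense gene. In 18 of the 34 the gene was Rn7sl1, the RNA of the signal recognition particle, or was listed under an Rfam family number: 7 genes were RF00017, 3 each RF00002 and RF00004, 2 RF00003 and 1 each RF00001 and RF00100. Such families have near-identical copies across the genome, and 8 of these 18 genes had fewer than 10 recovered input fragments over all 6 libraries, so which copy gave the reads is uncertain. Rn7sl1 and one RF00017 gene were listed at 0 FPKM in every library and still carried a persisting peak of 270 nt. The snRNA gene RF00004 at chr10:89562040-89562230 was covered whole in every knockdown list, at a p of 2.5e-32, 1.3e-28 and 1.7e-08 in Adsh-1, Adsh-2 and Adsh-3 and 2e-57 in control list 3. Its input level was 279, 315 and 493 FPKM in Adsh libraries and 8.19, 18.8 and 466 FPKM in Adcon libraries, so that Adcon library 3 lay among the Adsh libraries.

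The lincRNA AC134224.3 was the most abundant noncoding gene with a persisting peak. Its single block of 695 nt at chr1:221158098-221158792 was covered whole in all knockdown lists and stood at a p of 0 in all 6 lists. Its input level was 7649, 14169 and 7920 FPKM in Adsh libraries and 4474, 3954 and 4108 FPKM in Adcon libraries. Every Adsh library was above every Adcon library, with a log2 change of 1.19 (SE 0.48, limma adjusted p = 0.385).

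Some protein-coding members may also lie in copies, which was not tested. Among peaks whose gene symbol was found in the RefSeq table, 9 of 382 persisting peaks (2.36%) and 20 of 2702 others (0.740%) were listed on another chromosome than RefSeq assembly GRCr8 gives for the symbol, and 8 of the 9 were single blocks. Rack1, a scaffold protein of the small ribosomal subunit, was one of these: it had 3 persisting peaks on chromosome 12, where RefSeq places the symbol on chromosome 10, and its mean level was 4.15 FPKM. Ptma, which codes the chromatin protein prothymosin alpha, was listed on chromosome 13, against chromosome 9 in RefSeq. GRCr8 is another assembly than that of the lists, and no sequence was examined. If such members are copies, their reads may be shared with the parent gene, so their values are uncertain. AABR07018038.2, a predicted gene with 3 persisting peaks, overlapped Mphosph8 at 2 of them, and Rpl13a overlapped AC099450.1. AABR07015078.1 and AABR07015078.2 overlapped on opposite strands at chr14:46650176-46650381 and chr14:46649976-46650359, both at a p of 0 in all 6 lists.

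Persisting peaks lay in RNAs of higher level than the other control peaks. The mean input level of the gene over the 6 libraries had a median of 33.3 FPKM (interval 30.2 to 37.7 FPKM, quartiles 17.8 and 96.2 FPKM), against 16.8 FPKM for the others (15.9 to 17.5 FPKM, quartiles 7.77 and 35.2 FPKM). A level of at least 100 FPKM was seen for 113 persisting peaks (24.6%) and for 250 others (8.28%). Read the other way, the share of control peaks that persisted was 5.08% in genes at 1 to 10 FPKM (47 of 925), 11.5% at 10 to 30 FPKM (149 of 1292), 17.7% at 30 to 100 FPKM (139 of 785) and 31.1% at 100 FPKM or more (113 of 363). Below 1 FPKM it was 10.5% (12 of 114). By exonic length the span was wider still, from 3.55% of peaks of 100 to under 160 nt (56 of 1577), through 6.80% at 160 to under 190 nt (63 of 927) and 23.9% at 190 to under 250 nt (124 of 519), to 47.6% of peaks of 250 nt or more (217 of 456).

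**Figure D2:**
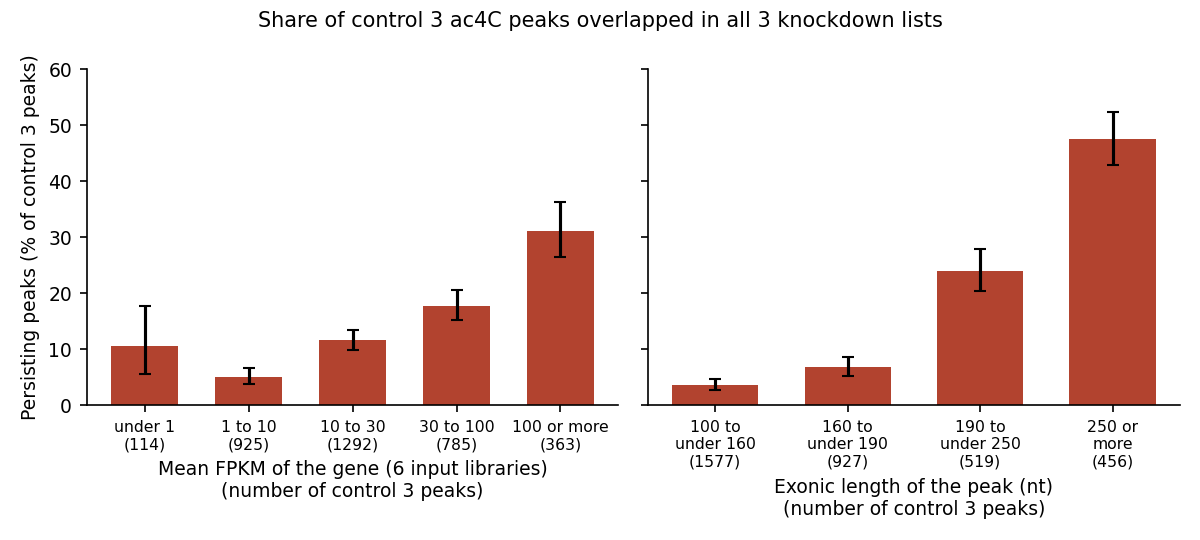
Persisting peaks as a percentage of the peaks of control list 3, by mean FPKM of the gene (left) and by exonic length of the peak in nt (right), with exact binomial 95% intervals that cover counting error and the number of control peaks below each bar. The share is 31.1% at 100 FPKM or more and 47.6% at 250 nt or more.

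Matrix genes carried some of the strongest persisting peaks. Of 18 genes of a collagen and matrix list with a peak in control list 3, 6 had a persisting one (33.3%, against 14.8% of all genes with a control peak): Sparc, Col1a1, Fn1, Bgn, Col5a2 and Plod2. The list's genes had a median level of 231 FPKM, and level moves with persistence as above. The part of level in this share was not tested. The reference of 14.8% applies to the lists below as well, and the part of level in their shares was not tested either. Their median levels differed, with 151 FPKM for the contractile, 124 FPKM for the actin and 255 FPKM for the ribosomal protein list. The RNA acetylation and modification list had 21.8 FPKM. Col1a1, the alpha 1 chain of type I collagen, had peaks at chr10:82761505-82761744 and chr10:82762401-82762789. The second stood at a p of 0 in all 6 lists, with 359, 300 and 389 of its 389 bases covered. At the first, Adsh-1 listed a p of 1.6e-87 and the other 5 lists a p of 0. The peak of Sparc, a collagen-binding matrix glycoprotein, had 300 bases at chr10:40743147-40743446 with a p of 0 in Adsh-1 and Adsh-3 and 1e-182 in Adsh-2, and was not met by control list 2. The peak of Fn1, fibronectin, had 390 bases at chr9:78900103-78900492, with a p of 1.6e-17, 1e-200 and 1e-198 in Adsh-1, Adsh-2 and Adsh-3.

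Of 9 listed genes of other secreted and growth factors with a control peak, 3 had a persisting one (33.3%, against 14.8% of all genes with a control peak). The list's genes had a median level of 135 FPKM. Ltbp2, a matrix protein related to the TGF-beta binding proteins, and Igfbp4, which binds insulin-like growth factors, were among them. The Igfbp4 peak was covered in part, with 31, 90 and 180 of 299 bases covered in Adsh-1, Adsh-2 and Adsh-3.

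Of the contractile genes, 3 of 8 with a control peak had a persisting one. Flna, which codes the actin cross-linker filamin A, had 211 bases at chrX:156487035-156487245, with 121, 151 and 211 covered. Cald1, caldesmon, which restrains actomyosin, had 2 persisting peaks, and every knockdown list covered the whole of its 3-block peak of 330 bases. Lmod1, the actin nucleator leiomodin 1 and a marker of smooth muscle, had a 2-block peak of 537 bases of which Adsh-2 covered 31. Actin cytoskeleton genes persisted in 8 of 16 cases, the highest being Tmsb4x (thymosin beta 4, which sequesters actin monomers), Tpm4 (a tropomyosin) and Pfn1. Of 15 integrin and focal adhesion genes with a control peak, 3 persisted: Flna, Actn4, an actin cross-linker of adhesion sites, and Parva, which links integrin-linked kinase to actin.

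Chaperones were the list with the largest share among those with a persisting peak, at 7 of 13 (53.8%), and their genes had a median level of 133 FPKM. Most of the named ones serve the endoplasmic reticulum. Hspa5, the main HSP70 of that compartment, had 239 bases at chr3:13842464-13842702, with 209, 180 and 239 covered. Calr, the lectin chaperone calreticulin, had a 3-block peak of 297 bases at chr19:25957333-25958875 that all knockdown lists covered whole, at a p of 1e-157, 1e-295 and 0. Hsp90b1, the HSP90 of the endoplasmic reticulum, had 2 peaks, of 538 and 329 bases. Hsp90ab1, a cytosolic HSP90, had a 2-block peak of 449 bases. The input levels of Hspa5, Calr and Hsp90b1 were highest in Adsh library 2. Hspa5 stood at 239, 2768 and 237 FPKM in Adsh libraries and 440.2, 305 and 307 FPKM in Adcon libraries, and Hsp90b1 at 308, 959 and 338 FPKM in Adsh libraries and 334, 427 and 426 FPKM in Adcon libraries.

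Genes of protein synthesis gave 5 of 14 translation factors and 11 of 38 cytosolic ribosomal protein genes with a control peak. Pabpc1, the poly(A)-binding protein, had a 4-block peak of 389 bases at chr7:75414444-75418726 with 389, 299 and 389 covered. Eif2s2, the beta subunit of initiation factor 2, had 5 blocks and 568 bases, with 508, 538 and 568 covered, and Eif4a1, an RNA helicase that unwinds the 5′ end of messages, had a single block of 601 bases with 331, 181 and 511 covered. Among ribosomal proteins, the 3-block peak of Rpl35 at chr3:23294814-23297411 stood at a p of 0 in all 6 lists with 327, 238 and 327 of 327 bases covered. Rpl4 had 237 bases with 237, 178 and 237 covered, and Rpl5 had 298 bases with 298, 179 and 298 covered. Ribosomal protein genes have many processed copies, which makes the assignment of their reads uncertain.

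RNA-binding and splicing proteins persisted in 7 of 20 genes with a control peak, led by Ncl (nucleolin, a nucleolar RNA-binding protein), Hnrnpa2b1 and Hnrnpa3. Of 10 RNA acetylation and modification genes with a control peak 4 had a persisting one. Nop58 and Fbl are core proteins of the box C/D particles that methylate ribosomal RNA, and Dkc1 is the pseudouridine synthase of the box H/ACA particles. The Nop58 peak had 6 blocks and 688 bases at chr9:66513794-66519728, with 568, 450 and 688 covered and a p of 1e-188, 2e-47 and 0 in Adsh-1, Adsh-2 and Adsh-3. The fourth was Alkbh5, an RNA demethylase. Histone and chromatin genes gave 3 of 8 (Anp32b, Ptma and Hmgb2). Immediate early and stress genes gave 1 of 9, the stress transcription factor Atf4, nuclear-encoded respiratory genes 1 of 8, the ATP synthase subunit Atp5f1c, and glycolytic genes 0 of 3.

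Persisting peaks were found again more often than the other control peaks in control lists 1 and 2, which the selection did not use. Control list 1 met 379 of the 460 persisting peaks (82.4%, interval 78.6% to 85.8%) and 663 of the 3019 others (22.0%, 20.5% to 23.5%). Control list 2 met 230 persisting peaks (50.0%, 45.3% to 54.7%) and 429 others (14.2%, 12.98% to 15.5%). Both lists met 45.0% of the persisting peaks and 7.42% of the others, and neither list met 12.6% and 71.2%. The 2 lists differ in size, with 3117 and 1920 rows, and rows that met a persisting peak made up 12.3% of each. The same held within classes of RNA level. At 100 FPKM or more, control list 1 met 88.5% of persisting peaks and 44.0% of others. At 1 to 10 FPKM it met 80.9% and 15.1%. It held within classes of length as well. At 250 nt or more, control list 1 met 88.0% of persisting peaks and 48.1% of others. At 100 to under 160 nt it met 73.2% and 15.1%. Each split fixed 1 property only. At 100 FPKM or more the median length was still 290 nt for persisting peaks and 180 nt for others. The p-values were not matched, with medians of 2.45e-08 for persisting peaks and 0.00074 for others in control list 3. The parts of level, length and p in these differences were not separated. No test was run over these 2 control lists, and peaks of 1 list are not replicates.

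**Figure D3:**
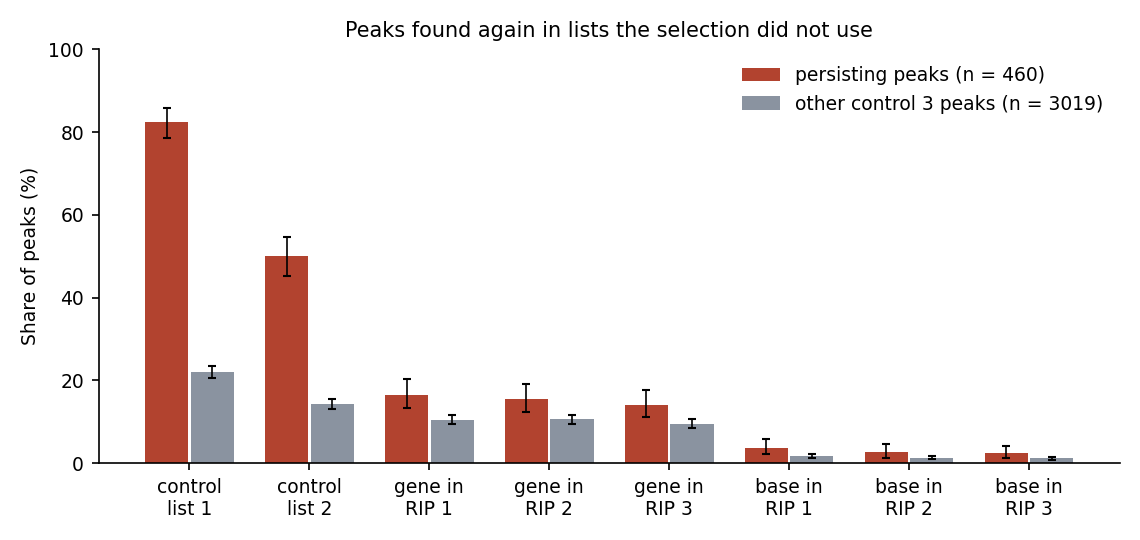
Share of persisting (red) and other (grey) peaks of control list 3, in percent, that share a base with a row of control list 1 or 2, whose gene is in a NAT10 RIP list, or that share a base with a NAT10 RIP row, with exact binomial 95% intervals for counting error. Control list 1 met 82.4% of the persisting peaks, against 22.0% of the others, and the RIP shares differ by a few percentage points.

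Few persisting peaks lay under a NAT10 RIP peak. The 3 RIP lists shared a base with 3.70%, 2.61% and 2.39% of persisting peaks (17, 12 and 11 peaks) and with 1.72%, 1.26% and 1.16% of the others, a mean of 2.90% ± 0.699 against 1.38% ± 0.301 (SD, n = 3 lists). The gene had a RIP peak anywhere in 15.4% ± 1.20 of persisting peaks and in 10.2% ± 0.566 of the others (SD, n = 3 lists). In every RIP list both shares were higher for persisting peaks. Within classes of RNA level the difference did not keep 1 direction. At 100 FPKM or more the gene was in a RIP list for a mean of 25.7% of persisting peaks and 23.9% of others, and at 30 to 100 FPKM for 20.4% and 19.2%. At 10 to 30 FPKM the shares were 8.72% of persisting peaks and 9.94% of others, and at 1 to 10 FPKM 0.709% and 1.29%. A base was shared at 10 to 30 FPKM by 0.224% of persisting peaks and 0.962% of others, and at 100 FPKM or more by 8.26% and 6.93%. Length gave mixed directions as well. A base was shared by a mean of 3.99% of persisting peaks and 3.49% of others at 250 nt or more, by 3.23% and 1.18% at 190 to under 250 nt, by 0% and 1.43% at 160 to under 190 nt, and by 1.19% and 1.07% at 100 to under 160 nt. The gene was in a RIP list for 2.98% of persisting peaks and 8.79% of others at 100 to under 160 nt, and for 19.97% and 16.7% at 250 nt or more. RIP peaks with a log2 enrichment of at least 2 shared a base with a mean of 0.290% of the persisting peaks.

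Persisting peaks that met all 3 RIP lists were 6 in number, 1 each in Mt-nd5, Calr, Flna, Hsp90b1, Nucb2 and Eprs. This was 1.30% of the 460 (interval 0.480% to 2.82%). Of the 3019 other control peaks 24 did so (0.795%, 0.510% to 1.18%), and the intervals overlapped. In Mt-nd5, a subunit of respiratory complex I, 316, 291 and 266 bases of the 721 nt peak at chrMT:12845-13565 were shared, and the authors' highest log2 enrichment in the gene was 2.77, 2.31 and 1.34 in RIP lists 1 to 3. Flna shared 74 bases with each RIP list, and Calr 59. Both had log2 enrichments close to 1, between 1.08 and 1.11 for Flna and between 0.96 and 1.04 for Calr. Nucb2 codes a calcium-binding protein of the secretory pathway and Eprs the glutamyl-prolyl tRNA synthetase. A row in all 3 RIP lists was held by 43 of the 422 genes, and these were ranked by the mean over the lists of the authors' highest log2 enrichment in the gene. The 4 highest means were 2.14 for Mt-nd5, 2.06 for Map1b, a microtubule-associated protein, 1.86 for Macf1, a giant linker of microtubules and actin, and 1.84 for Tcof1, a nucleolar factor of ribosomal RNA synthesis. The order differed from list to list, and in RIP list 3 Map1b, at 2.31, was above Mt-nd5, at 1.34. In Map1b, Macf1 and Tcof1, 0 bases were shared between RIP row and persisting peak. The predicted gene AABR07015078.1 had higher log2 enrichments of 9.19 and 8.87 in RIP lists 1 and 3 and no RIP row in list 2.

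The input RNA of the genes with a persisting peak gave no call after knockdown. Of 422 genes, 411 had a mean of at least 1 FPKM and were tested with limma on log2(FPKM + 1) among 13450 genes. At an adjusted p under 0.05, 0 of the 411 were higher in Adsh libraries and 0 lower, as for all genes (0% in each direction), and the lowest adjusted p was 0.155. At an unadjusted p under 0.05, 16 of the 411 were higher (3.89%, against 5.53% of all genes tested) and 49 lower (11.9%, against 6.95%). The 3 Adsh and 3 Adcon libraries did not overlap for 35 higher genes (8.52%, against 9.63%) and 69 lower genes (16.8%, against 10.9%). The median log2 change was -0.10 (quartiles -0.40 and 0.17), against -0.01 for all genes tested. The 2331 genes whose only control peaks were not persisting had a median of -0.05, with 9.27% lower at an unadjusted p under 0.05. The counts moved with single libraries, and so did the shares over all genes. Without Adsh library 2, 32 genes were higher (7.79%, against 7.55% of all genes tested). Without Adsh library 3, 31 were higher (7.54%, against 8.56%) and 81 lower (19.7%, against 10.7%). Without Adcon library 2, 8 were higher (1.95%, against 2.71%) and 29 lower (7.07%, against 3.45%), and without Adcon library 3, 9 were higher (2.20%, against 2.64%) and 25 lower (6.10%, against 3.6%). The summed level of the smooth muscle markers was also below the Adcon range in every Adsh library, as given above, and its part in these shares was not tested.

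**Figure D4:**
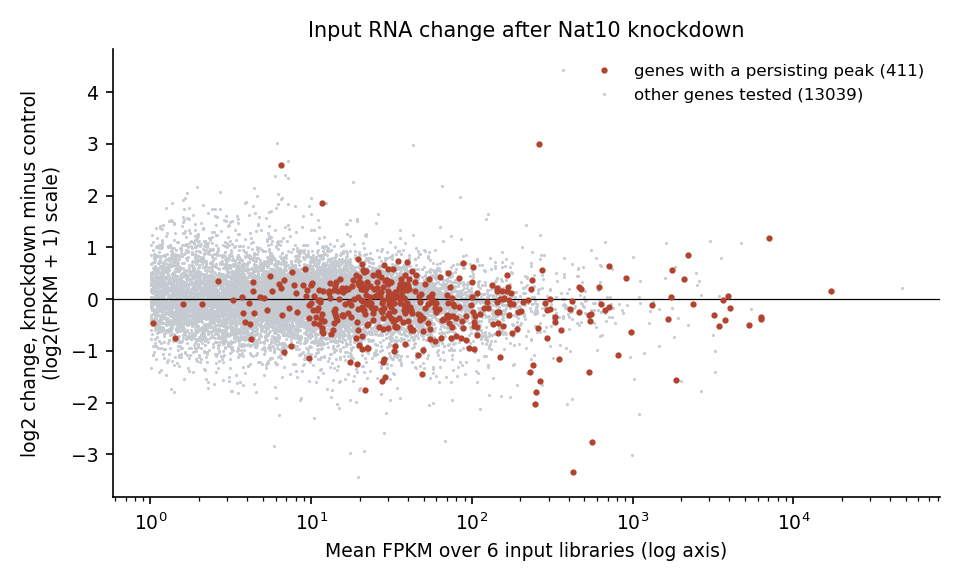
Log2 change of input RNA, Adsh minus Adcon on the log2(FPKM + 1) scale, against the mean FPKM over the 6 input libraries on a log axis, for the 411 genes with a persisting peak (red) and the other tested genes (grey). The median of the red genes is -0.10, and none of the points passed the adjusted threshold.

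The genes lower in the knockdown libraries with the smallest p were Nexn, Plod2, Smarce1 and Ptma. Nexn, the actin-binding muscle protein nexilin, stood at 16.0, 11.8 and 15.6 FPKM in Adsh libraries and 50.7, 37.1 and 41.9 FPKM in Adcon libraries, with a log2 change of -1.51 (SE 0.19, limma adjusted p = 0.155). Its persisting peak, 476 bases in 3 blocks at chr2:257459936-257465042, had 328, 209 and 387 bases covered. Plod2, a lysyl hydroxylase that prepares collagen for cross-links, stood at 84.9, 61.3 and 165 FPKM in Adsh libraries and 414, 385 and 378 FPKM in Adcon libraries, with a log2 change of -2.03 (SE 0.35, limma adjusted p = 0.193). It kept a pair of peaks, of 389 and 120 bases. Smarce1, a subunit of the SWI/SNF chromatin remodeller, averaged 15.3 ± 2.32 FPKM in Adsh and 30.01 ± 1.07 FPKM in Adcon libraries (SD, n = 3 each). Ptma averaged 21.7 ± 4.04 FPKM in Adsh and 43.8 ± 1.65 FPKM in Adcon libraries (SD, n = 3 each). In all of these genes the Adsh libraries lay wholly below the Adcon libraries, and the limma adjusted p was 0.193 for Smarce1 and for Ptma.

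In the contractile, matrix and actin lists, 0 genes with a persisting peak passed the adjusted threshold. At an unadjusted p under 0.05, which 6.95% of all genes tested met in the lower direction and 5.53% in the higher, 2 of 3 contractile, 2 of 6 matrix and 2 of 8 actin genes were lower. Of the 13 lists with a persisting gene, these and another 3 lists with 1 lower gene each made up the 6 lists with any lower gene, 7 lists had none, and 0 of the 13 had a higher one. Lmod1 stood at 7.98, 5.96 and 15.4 FPKM in Adsh libraries and 40.5, 29.4 and 30.2 FPKM in Adcon libraries (limma adjusted p = 0.220). Cald1 stood at 242, 108 and 340.4 FPKM in Adsh libraries and 443, 469.5 and 489 FPKM in Adcon libraries (limma adjusted p = 0.351). Tpm4 averaged 539.9 ± 245 FPKM in Adsh and 1079.8 ± 85.6 FPKM in Adcon libraries (SD, n = 3 each; limma adjusted p = 0.324). None of these groups overlapped.

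The largest negative log2 changes among genes with a persisting peak, chosen after the values were seen, were those of Ccdc80 and Col5a2. Ccdc80, which codes a secreted matrix-associated protein, stood at 50.2, 29.98 and 247 FPKM in Adsh libraries and 774, 729 and 732 FPKM in Adcon libraries, a log2 change of -3.35 (SE 0.70, limma adjusted p = 0.245). It had a persisting peak at chr11:60646316-60646645 and another at chr11:60676592-60676922. The Adsh-2 rows on either peak came to 3780 exonic bases, with a smallest p of 1.3e-33 at both. The gene has 5069 exonic bases, so Adsh-2 may have met both peaks with the same long row. Col5a2, a chain of type V collagen, stood at 129, 65.3 and 306 FPKM in Adsh libraries and 834, 983 and 1017 FPKM in Adcon libraries, a log2 change of -2.77 (SE 0.52, limma adjusted p = 0.220). A peak of 449 bases in 7 blocks at chr9:52109227-52118179 persisted there.

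Among the genes of highest level, Col1a1, Sparc, Fn1, Mt-co1, Mt-cyb and Rpl35 showed overlapping groups or small differences, unlike AC134224.3, given above. Tpm4, Cald1, Ccdc80 and Col5a2, also abundant, were lower in Adsh libraries without overlap, as given above. Col1a1 stood at 4078, 3005 and 6372 FPKM in Adsh libraries and 5874, 6135 and 6235 FPKM in Adcon libraries (log2 change -0.51, SE 0.46, limma adjusted p = 0.677). Sparc stood at 4018, 5113 and 7358 FPKM in Adsh libraries and 8386, 6390 and 6275 FPKM in Adcon libraries (limma adjusted p = 0.763). Fn1 stood at 2479, 2407 and 3632 FPKM in Adsh libraries and 4491, 3791 and 3775 FPKM in Adcon libraries, without overlap (limma adjusted p = 0.597). Mt-co1 stood at 14443, 17289 and 23068 FPKM in Adsh libraries and 18354, 15279 and 14674 FPKM in Adcon libraries, and Mt-cyb averaged 5915 ± 3354 FPKM in Adsh and 6670.3 ± 873 FPKM in Adcon libraries (SD, n = 3 each). Rpl35 stood at 1121, 1376 and 1294 FPKM in Adsh libraries and 1389, 1278 and 1446 FPKM in Adcon libraries. For all of these the difference was within the spread between libraries or did not pass the test.

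The genes higher in the knockdown libraries with the smallest p were an rRNA gene of family RF00002, Nmt2, Gna13 and Cebpz. The RF00002 gene (ENSRNOG00000053888) rests on 9, 26 and 7 recovered fragments in Adsh libraries and 5, 0 and 1 in Adcon libraries and belongs to a family of near-identical copies. Nmt2, an N-myristoyltransferase, stood at 50.5, 48.1 and 48.8 FPKM in Adsh libraries and 35.8, 26.6 and 26.5 FPKM in Adcon libraries (log2 change 0.72, SE 0.17, limma adjusted p = 0.266). Gna13, a G protein alpha subunit upstream of RhoA, stood at 23.4, 29.7 and 23.6 FPKM in Adsh libraries and 17.9, 14.5 and 14.5 FPKM in Adcon libraries (log2 change 0.68, SE 0.18, limma adjusted p = 0.279). Cebpz, a factor of ribosome assembly, averaged 31.0 ± 2.13 FPKM in Adsh and 21.4 ± 0.192 FPKM in Adcon libraries (SD, n = 3 each; limma adjusted p = 0.292). For these genes every Adsh library was above every Adcon library. The 240 nt peak of Gna13 at chr10:97684431-97684670 stood at a p of 0.00028, 0.00011 and 0.0023 in Adsh-1, Adsh-2 and Adsh-3 and at 1e-163 in control list 3, while control lists 1 and 2 gave 3.1e-05 and 1.4e-06.

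**Figure D5:**
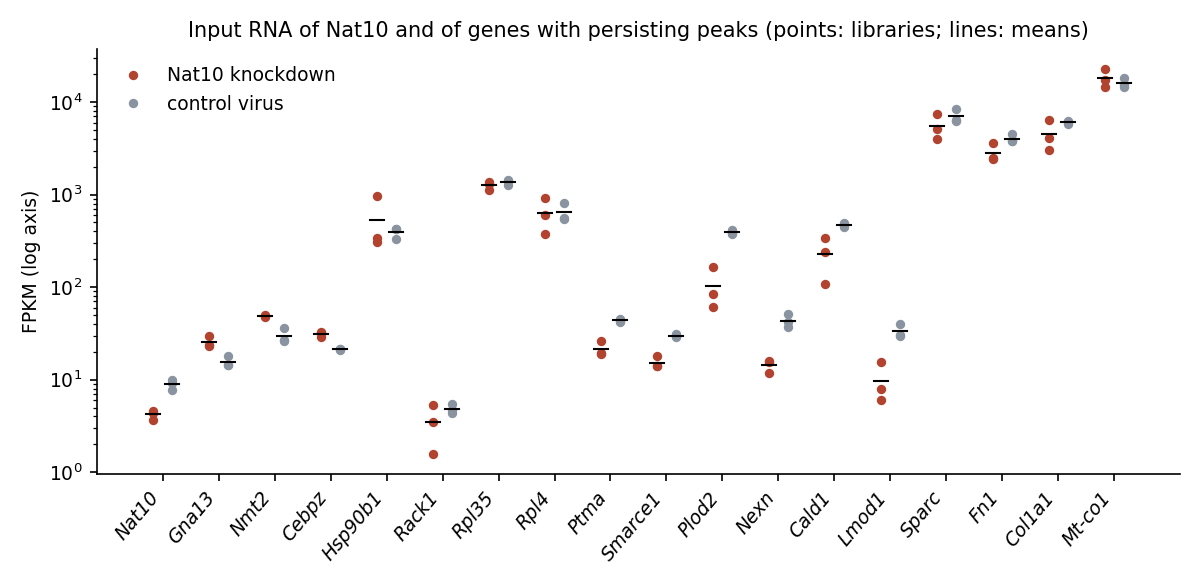
Input RNA level in FPKM on a log axis of Nat10 and of genes with persisting peaks, with each library as a point (Adsh red, left; Adcon grey, right) and each group's mean as a line. Nat10, Plod2, Nexn and Lmod1 are lower and Gna13, Nmt2 and Cebpz higher in every Adsh library than in any Adcon library, none at an adjusted p under 0.05.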

How the data were processed

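The deposited table gives the authors' FPKM per gene in the 6 input libraries, and each immunoprecipitated library has its own deposited peak list. In the ac4C lists the score column is a p-value, per the file headers. The RIP lists carry, per the file headers, a log2 enrichment, a p-value raw and adjusted, both again as −log10 values, and a score; of these only the log2 values were used here. Tools named in the submitters' processing notes are DESeq2, featureCounts 1.6.3, HISAT2 2.1.0, cutadapt 2.5 and HOMER 4.10.4, and builds named there are GRCh38, GRCm38 and rn6, with no role for any. Neither the peak callers nor the control behind the RIP enrichment could be learned from the sources used here. The non-immunoprecipitated library of the RIP assay was not analysed here.

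Exonic blocks were intersected with Python 3.11.15 and pandas 2.3.3, on the same chromosome and strand, at a minimum of 1 shared base. In control lists 1 and 2, 26881 and 27673 rows that share 1 p-value (0.045 and 0.046) were left out. Library depth came from whole fragments recovered from the FPKM: all 21401 genes above 0 gave whole numbers in 6 libraries at a relative tolerance of 2e-08, but so did 30 of 500 genes with altered values, so these fragments entered no test. Input levels were compared by limma 3.58.1 (R 4.3.3): log2(FPKM + 1) of the 13450 genes with a mean of at least 1 FPKM, a trended prior variance, no covariate beside group, two-sided, with Benjamini-Hochberg adjustment over all of them. That scale understates the change of low genes. The fit was tested on simulated data. Shares carry exact Clopper-Pearson 95% intervals, and medians exact binomial ones.

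The members, the gene lists and the rule for named genes were chosen with earlier results of these data known. Named were Nat10, the members with the smallest p, most peaks, highest FPKM, most blocks, smallest shared length, lowest limma p and highest RIP enrichment, and the 3 highest members of each list. Ccdc80, Col5a2, Bgn, Alkbh5, Nucb2 and Eprs were named after their values were seen. Of the symbols in the lists, 16 were not in the deposited table. Some genes that the rule for named genes selects are not reported here.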

Additional observations from a re-analysis of the deposited data

How the results depend on the processing

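Of 106 values recomputed, 81 stayed within their spread or within 1.5 times the count, and 25 moved. The count of 460 was 383 when 50% of the peak had to be shared, 323 at p of at most 0.001 in every list, 465 with strand ignored, 403 with control list 1 and 247 with control list 2 in place of control list 3, and 554 to 722 with a knockdown list left out. At p of at most 0.001 the median length was 270 nt, the median level 40.2 FPKM and the mean share meeting a RIP list 3.92%, and with RIP peaks of log2 enrichment of at least 2 that share was 0.290%. With a knockdown list left out, the median length was 238 to 239 nt, 38.9% to 42.4% of peaks had more than 1 block, and control lists 1 and 2 met 70.6% to 77.1% and 42.1% to 46.8% of them. For the input RNA of the 411 genes, each alternative fit with limma gave 0 adjusted calls in either direction. With an input library left out, 8 to 32 genes were higher and 25 to 81 lower at an unadjusted p under 0.05, and the median log2 change was -0.14 to -0.057. With quantile normalization the median was -0.036. With the replicate number as a block, 9 genes were higher at an unadjusted p under 0.05; same-numbered libraries correlated at -0.21, -0.28 and 0.18 for numbers 1 to 3 in their deviations from the group means, so the numbers were not taken to pair the samples. The causes of these shifts were not tested. A smaller number of lists or libraries was not told apart from the choice of the list or library left out. Depth of the ac4C and RIP libraries was unknown, so a peak not listed is not shown to be absent.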
